A study of Mus musculus with 12 samples.

Results

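The regions described here are stretches of the mouse genome that lay outside lamina-associated domains (LADs) in control 4-cell embryos and inside LADs in each of the other groups of the study, which were Rif1-knockdown 4-cell embryos, Rif1-knockdown 8-cell embryos and control 8-cell embryos. They were chosen by the LAD calls themselves. Chromosomes 1 to 19 were divided into bins of 100 kb, starting on each chromosome at the first LAD found in any group and ending at the last, and a bin was taken when it was outside the LADs of the siControl 4-cell list and in the LADs of the siRif1 4-cell, siRif1 8-cell and siControl 8-cell lists. This gave 1961 bins, or 196.1 Mb, of the 23849 bins (2384.9 Mb) of the grid, a share of 8.22%. Which list each bin was in is therefore a description and not a finding, and it was not tested.

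The study mapped contacts with the nuclear lamina in embryos of (C57BL/6J xCBA) x DBA/2J parents by DamID. All groups received an siRNA at 20 µM as zygotes, 17 to 18 h after hCG, and at 46 to 48 h the blastomeres of late 2-cell embryos received mRNAs for Tir1, an auxin receptor, at 250 ng/µL, membrane eGFP at 100 ng/µL and, at 20 ng/µL, Dam-LaminB1 with an AID degron. Auxin at 500 µM kept the fusion degraded until it was taken away at 54 h, with collection at 60 to 62 h, or at 66 h, with collection at 72 to 74 h. The groups were siRif1 4-cell, siControl 4-cell, siRif1 8-cell and siControl 8-cell, with 3 replicates each and 12 samples in all. A replicate was a pool of 16 to 24 blastomeres from 4 to 6 embryos at the 4-cell stage or from 2 to 3 embryos at the 8-cell stage. Each group has a single LAD list made from all 3 of its replicates, so no list carries a replicate error and the read depth behind it is unknown. The lists hold no measure of Rif1 itself, so the knockdown could not be checked in them.

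In DamID a fusion of the bacterial methyltransferase Dam with a lamina protein methylates adenine in GATC where DNA lies near the lamina. LADs are broad regions found in this way, and in differentiated mammalian cells they are typically poor in genes, late replicating and little transcribed. RIF1 is a chromatin protein that sets the timing of DNA replication and contacts the lamina in part of the genome.

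The promoters of genes in these regions show what kind of sequence they hold, and 4 are printed with 2 from other regions for comparison. Each runs from 250 bases before to 50 bases after a start that RefSeq annotates, 300 bases in all, 5′ to 3′ on the strand of the gene, with every CpG in capitals. The sequences are from RefSeq, build GRCm38.p6. Gria4, an AMPA-type glutamate receptor subunit, is at chr9:4796185-4796484 on the minus strand. Ano3, of the anoctamin membrane proteins, is at chr2:110950195-110950494 on the minus strand. Cyp2j8, a cytochrome P450, is at chr4:96507348-96507647 on the minus strand, and Adgrv1, an adhesion receptor of hair cells, is at chr13:81633095-81633394 on the minus strand. All 4 are the longest genes of long stretches. The start used lies 147 bases inside the outer end of the gene for Ano3, 247 bases inside it for Adgrv1, and at that end for Gria4 and Cyp2j8. Tmem117, at chr15:94628935-94629234 on the plus strand, lies in bins that were LAD in all 4 lists, and Ralgps1, at chr2:33371445-33371744 on the minus strand, lies in bins outside LADs in all 4 lists.
Gria4: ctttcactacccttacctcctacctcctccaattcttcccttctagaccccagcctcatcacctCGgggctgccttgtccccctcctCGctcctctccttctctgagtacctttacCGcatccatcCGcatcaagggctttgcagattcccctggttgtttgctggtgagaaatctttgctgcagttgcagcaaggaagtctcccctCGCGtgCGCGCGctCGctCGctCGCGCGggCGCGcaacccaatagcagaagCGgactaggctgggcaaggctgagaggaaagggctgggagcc
Ano3: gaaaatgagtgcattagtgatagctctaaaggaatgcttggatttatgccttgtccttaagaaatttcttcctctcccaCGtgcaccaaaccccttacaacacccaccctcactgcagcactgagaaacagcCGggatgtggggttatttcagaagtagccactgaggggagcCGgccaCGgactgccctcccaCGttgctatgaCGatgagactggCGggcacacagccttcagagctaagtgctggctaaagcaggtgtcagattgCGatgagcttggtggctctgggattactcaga
Cyp2j8: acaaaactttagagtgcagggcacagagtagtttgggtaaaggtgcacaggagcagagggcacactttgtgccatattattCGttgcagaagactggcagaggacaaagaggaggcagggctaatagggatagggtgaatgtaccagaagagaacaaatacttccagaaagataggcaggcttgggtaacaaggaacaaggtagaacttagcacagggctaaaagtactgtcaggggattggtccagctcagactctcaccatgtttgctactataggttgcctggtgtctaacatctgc
Adgrv1: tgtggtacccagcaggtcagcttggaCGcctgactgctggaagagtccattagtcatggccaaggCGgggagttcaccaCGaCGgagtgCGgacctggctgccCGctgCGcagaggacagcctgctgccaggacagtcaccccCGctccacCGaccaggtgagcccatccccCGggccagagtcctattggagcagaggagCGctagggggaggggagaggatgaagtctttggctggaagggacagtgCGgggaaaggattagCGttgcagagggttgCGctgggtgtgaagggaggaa
Tmem117: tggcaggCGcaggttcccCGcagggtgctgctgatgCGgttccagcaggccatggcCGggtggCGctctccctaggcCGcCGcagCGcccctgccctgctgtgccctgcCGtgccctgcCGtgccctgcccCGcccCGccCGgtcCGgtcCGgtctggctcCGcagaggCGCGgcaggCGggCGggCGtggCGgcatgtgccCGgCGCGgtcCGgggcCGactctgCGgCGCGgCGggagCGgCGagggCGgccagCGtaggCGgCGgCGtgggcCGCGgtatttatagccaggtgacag
Ralgps1: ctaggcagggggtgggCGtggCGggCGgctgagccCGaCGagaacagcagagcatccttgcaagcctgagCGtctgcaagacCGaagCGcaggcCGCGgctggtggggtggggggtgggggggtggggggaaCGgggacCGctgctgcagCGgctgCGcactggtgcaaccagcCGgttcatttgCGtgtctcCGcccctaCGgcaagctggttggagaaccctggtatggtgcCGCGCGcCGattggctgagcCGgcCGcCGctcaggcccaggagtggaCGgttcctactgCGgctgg

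Gria4 holds 17 CpGs in these 300 bases at a GC content of 59.7%, and Adgrv1 holds 14 at 63.3%. Ano3 has 8 CpGs at 52.0% GC, and Cyp2j8 has 1 at 47.3%. Tmem117 has 40 CpGs at 78.0% GC and Ralgps1 has 27 at 70.3%, more than any of the 4 promoters above. Both lie above the upper quartile of their own class, so they are not typical of it. That quartile was 23 CpGs and 63.7% GC for bins LAD in all 4 lists. For bins outside all lists it was 26 CpGs and 65.3% GC.

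The siControl 4-cell list was the shortest of the study. LADs covered 1038.4 Mb (43.5% of the grid, 644 LADs) in siRif1 4-cell embryos, against 785.7 Mb (32.9%, 601 LADs) in siControl 4-cell embryos. At the 8-cell stage they covered 1023.5 Mb (42.9%, 738 LADs) in siRif1 embryos and 1066.7 Mb (44.7%, 746 LADs) in siControl embryos. The bins missing in siControl 4-cell embryos alone made up 18.9% of the siRif1 4-cell list, 19.2% of the siRif1 8-cell list and 18.4% of the siControl 8-cell list. Among the 16 combinations of the lists theirs was the third most frequent, after bins in none of the lists (8281 bins) and bins in all of them (4092 bins). The comparison of siRif1 with siControl at the 4-cell stage and that of 8-cell with 4-cell controls share the siControl 4-cell list, so a bin that this list lacks enters both. How far the smaller total of that list accounts for the number of bins it lacks was not tested.

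The same count can be made for each list. Of the 6053 bins that were LAD in the other 3 lists, 1961 were outside LADs in siControl 4-cell embryos, a share of 32.4%. For siRif1 4-cell embryos this share was 6.94% (305 of 4397 bins), for siRif1 8-cell embryos 22.1% (1161 of 5253) and for siControl 8-cell embryos 9.85% (447 of 4539). Averaged over chromosomes, the share was 32.9 ± 10.6% for siControl 4-cell, 7.66 ± 4.71% for siRif1 4-cell, 24.0 ± 7.95% for siRif1 8-cell and 9.82 ± 6.03% for siControl 8-cell embryos (SD over 19 chromosomes, which are not replicates). The lowest chromosome for siControl 4-cell, at 18.6%, was close to the highest for siRif1 4-cell, at 18.9%, and for siControl 8-cell, at 19.6%. The siRif1 8-cell list overlapped in range, with up to 43.0%.

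**Figure D1:**
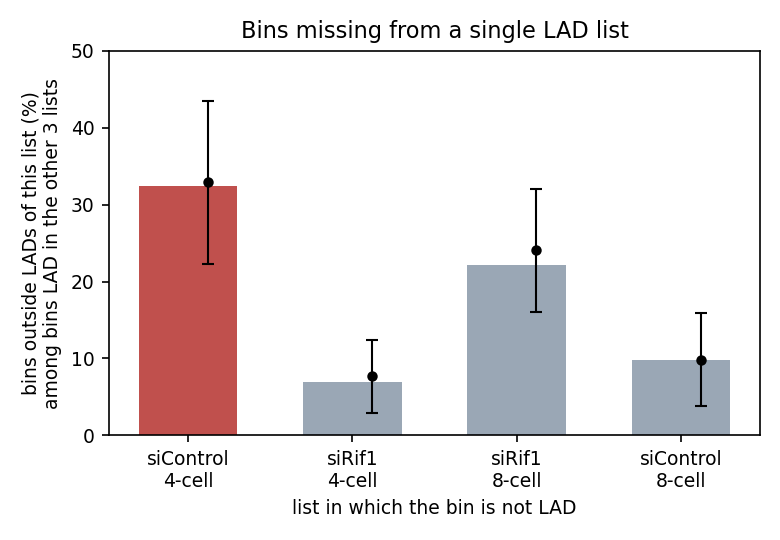
For each LAD list (x axis), the bar gives the percentage of bins outside its LADs among bins that were LAD in the other 3 lists, and the point with its bar gives the mean and SD over 19 chromosomes. The siControl 4-cell list lacked 32.4% of such bins, the siRif1 8-cell list 22.1%, and the siRif1 4-cell and siControl 8-cell lists under 10%.

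The missing bins were unevenly spread over the chromosomes. Chromosome 16 stood highest, with 115 of its 188 bins that were LAD in the other 3 lists outside LADs in siControl 4-cell embryos, or 61.2%. Chromosome 13 followed with 46.6%, and chromosomes 3 and 18 had 41.4% each. Chromosomes 19 and 6 were lowest, with 18.6% and 18.9%. The siControl 4-cell LADs covered 23.6% of the grid on chromosome 16, 20.4% on 13, 35.6% on 3 and 43.5% on 18. They covered 49.6% on chromosome 19 and 39.5% on 6. How far this coverage accounts for the order of the chromosomes was not tested. In total length the missing bins came to between 2.4 Mb on chromosome 19 and 21.9 Mb on chromosome 2. Chromosomes 1 to 4 were those with the most missing bins, together 751 or 38.3%, and they make up 28.4% of the grid. That count also depends on how much of a chromosome was LAD in the other 3 lists. Of such bins, 27.7% were missing on chromosome 1, 39.7% on 2, 41.4% on 3 and 38.7% on 4, beside 32.4% pooled.

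**Figure D2:**
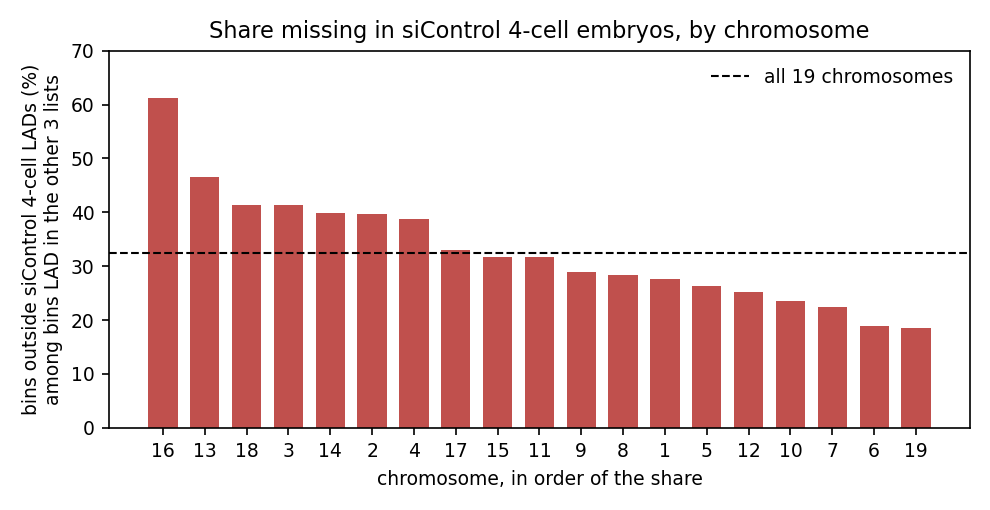
Percentage of bins outside siControl 4-cell LADs among bins that were LAD in the other 3 lists (y axis), by chromosome in order of the share (x axis), with the dashed line at the pooled 32.4%. Chromosome 16 stands apart at 61.2%, and the others run from 46.6% down to 18.6%.

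Along the chromosomes the missing bins lay more often in the middle than LADs common to all lists. Mouse autosomes carry the centromere at the end where coordinates begin. Of the missing bins, 32.2% were in the first part of the grid of their chromosome when it was cut into 3 equal parts, 39.7% in the middle and 28.1% in the last. For bins that were LAD in all 4 lists these shares were 22.2%, 30.9% and 46.8%. Bins that were LAD in both 8-cell lists alone lay in the middle about as often as the missing bins, with 38.3% there and 33.7% in the last part. The last 10 Mb of the chromosomes held 6.43% of the missing bins and 11.6% of the common LAD bins, beside 7.97% of the whole grid.

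Neighbouring bins joined into 431 stretches with a median length of 0.3 Mb (quartiles 0.2 and 0.6 Mb), and the longest was 2.3 Mb. Single bins numbered 93 and carried 4.74% of the missing length, whereas the 44 stretches of at least 1 Mb carried 29.8% and the 125 stretches of 0.5 to 0.9 Mb carried 40.9%. The stretches were sorted by what lay beside them in the siControl 4-cell list. Extensions, with a siControl 4-cell LAD on a single side, numbered 250 and held 50.0% of the bins. Freestanding stretches, with no such LAD on either side, numbered 140 and held 34.2%. Closures, with one on both sides, so that the siControl 4-cell list has a gap in what the other lists call as LAD, numbered 41 and held 15.8%. Closures were the longest kind by the median, at 0.6 Mb, against 0.4 Mb for freestanding stretches and 0.3 Mb for extensions. This ranking is partly set by the lists. Bridging gaps of up to 200 kb changed none of the missing bins, so a closure could not be shorter than 0.3 Mb. Single bins made up 69 of the extensions and 24 of the freestanding stretches, so the medians are not comparable on their own.

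Of the missing bins, 332 (16.9%) touched a siControl 4-cell LAD and 1123 (57.3%) lay within 0.5 Mb of one. The median distance was 0.4 Mb, 417 bins (21.3%) were over 1 Mb away, and the farthest was 7.3 Mb away. The stretches had 862 ends in all. Beside 326 of them (37.8%) the next bin was LAD in all 4 lists, and beside 12 (1.39%) it was LAD in none. At the 530 ends that did not meet a siControl 4-cell LAD, the next bin was still LAD in 2 of the other lists at 424 (80.0%) and in a single list at 94 (17.7%). The siRif1 8-cell list continued at 332 of these ends (62.6%), the siControl 8-cell list at 321 (60.6%) and the siRif1 4-cell list at 289 (54.5%). At most of these 530 ends a single further list stopped and the other 2 went on.

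A block is a run of adjacent bins that were LAD in the siRif1 4-cell, siRif1 8-cell and siControl 8-cell lists, whatever the siControl 4-cell list held. There were 625 blocks of 605.3 Mb. In siControl 4-cell embryos 145 blocks (23.2%) lay wholly outside LADs, 235 (37.6%) lay partly outside and 245 (39.2%) lay wholly inside. The blocks wholly outside were the shorter ones, with a median of 0.4 Mb against 0.8 Mb for the rest, and they carried 35.0% of the missing bins. The share of bins that was missing was 47.3% in blocks under 0.5 Mb, 39.0% in blocks of 0.5 to 0.9 Mb, 35.9% in blocks of 1 to 1.9 Mb and 22.0% in blocks of 2 Mb or more. The whole block was outside LADs for 88 of 212 blocks under 0.5 Mb (41.5%), for 18 of 152 blocks of 1 to 1.9 Mb (11.8%) and for none of the 75 blocks of 2 Mb or more, of which 49 (65.3%) were partly outside. A short block has fewer bins that must all be missing, so these shares of whole blocks are not comparable between lengths on their own.

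**Figure D3:**
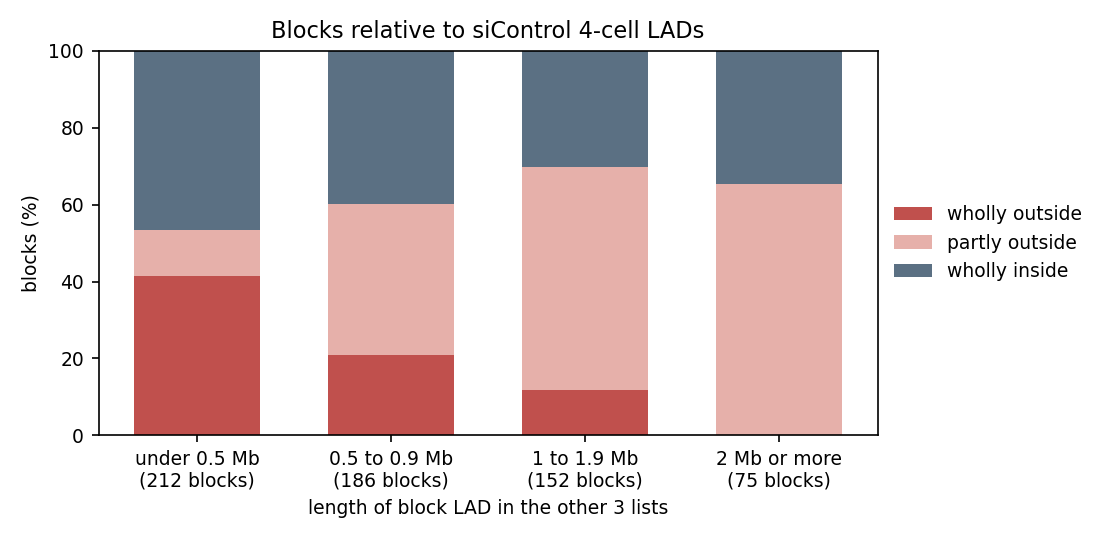
Percentage of blocks that lay wholly outside, partly outside or wholly inside siControl 4-cell LADs (y axis), by the length of the block that was LAD in the other 3 lists (x axis). Blocks wholly outside make up 41.5% of those under 0.5 Mb and none of those of 2 Mb or more.

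The 10 longest stretches held few genes, apart from the receptor and P450 clusters among them. The longest, at chr2:15200001-17500000 (2.3 Mb, GRCm38), was a closure and held 2 protein-coding genes, Malrd1, which takes part in the control of bile acid synthesis, and Plxdc2, a membrane protein with a plexin domain. A closure of 2.0 Mb at chr9:3800001-5800000 held 7 genes, among them Gria4 and the inflammatory caspases Casp4 and Casp12. A closure of 1.9 Mb at chr4:95900001-97800000 held 9 genes, of which 7 were Cyp2j genes, whose enzymes oxidise arachidonic acid. Its other named gene, Hook1, encodes a linker of cargo to microtubules.

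The longest extension, on chromosome 18 from 53700001 to 55900000 (2.2 Mb), held 3 genes, Zfp608, the casein kinase gene Csnk1g3 and Cep120, which is needed for centriole growth. An extension of 1.9 Mb at chr2:110200001-112100000 held 40 genes, which were Ano3, A26c3, 34 olfactory receptor genes from Olfr1275 to Olfr1314 and 4 others. An extension of 1.6 Mb at chr1:148900001-150500000, which was level with stretches on chromosomes 2, 4 and 16 and was taken as the first in genome order, held 6 genes, including Pla2g4a, a phospholipase that releases arachidonic acid, Tpr, a protein of the nuclear pore basket, and Odr4, which is known from Caenorhabditis elegans for the trafficking of odorant receptors.

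The freestanding stretches among the 10 were 4 in number. Chromosome 13 had a pair of 1.8 Mb each, at chr13:80300001-82100000 with 6 genes including Adgrv1, Mblac2 and Polr3g, a subunit of RNA polymerase III, and at chr13:86800001-88600000 with no protein-coding gene. The stretch at chr16:41400001-43200000 (1.8 Mb) held 2 genes, one of them Gap43, a protein of neuronal growth cones. The stretch at chr3:4500001-6200000 (1.7 Mb) held Zfhx4, a zinc-finger homeobox gene, and Pex2, needed to build peroxisomes. All 23 genes named in these 10 stretches had their whole body in LADs in siRif1 4-cell, siRif1 8-cell and siControl 8-cell embryos, and all but Cep120 had 0% of it in LADs in siControl 4-cell embryos. Cep120, at the edge of its stretch, had 28.6%. The genes were named for lying in these stretches, so these values largely follow from the choice of bins and are no separate finding.

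Gene content was not used to choose the bins. A gene was counted where its midpoint lay. The missing bins held 648 of the 20140 protein-coding genes of the grid (3.22%), or 3.30 genes per Mb, less than the 4.75 per Mb of bins that were LAD in all 4 lists, the 14.0 per Mb of bins outside all lists and the 8.44 per Mb of the whole grid. No part of a protein-coding gene lay in 59.2% of the missing bins, against 35.4% of the common LAD bins and 22.6% of the bins outside all lists. Runs of at least 500 kb without a protein-coding gene took in 48.1% of the missing bins, 47.1% of bins that were LAD in both 8-cell lists alone and 21.7% of the common LAD bins. Over chromosomes, gene density averaged 3.34 ± 2.38 per Mb in the missing bins and 4.64 ± 1.87 per Mb in the common LAD bins, and it was lower in the missing bins on 16 of 19 chromosomes. The share of bins without a gene averaged 59.0 ± 14.9% and 37.0 ± 6.50% in the same order (SD, 19 chromosomes), and it was higher in the missing bins on 18 of 19.

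The low gene content was found in long and short stretches. Stretches of at least 1 Mb held 2.57 genes per Mb and stretches under 0.5 Mb held 3.36. By kind, closures held 1.84 genes per Mb, freestanding stretches 2.59 and extensions 4.26. Of the 431 stretches, 219 (50.8%) held no gene midpoint, and 9 of the 44 stretches of at least 1 Mb were among them. At the other end, 11 stretches with at least 10 genes held 205 of the 648 genes (31.6%).

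The difference was also seen within the same blocks. In the 235 blocks partly outside siControl 4-cell LADs, the missing bins held 3.65 genes per Mb and 57.8% of them had no gene, whereas the bins of the same blocks that were LAD in siControl 4-cell embryos held 5.36 genes per Mb and 36.0% of them had no gene. Blocks wholly outside held 2.65 genes per Mb, with 61.7% of bins without a gene. Blocks wholly inside held 4.17 genes per Mb, with 34.9% of bins without a gene.

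Bins that were LAD in both 8-cell lists and in neither 4-cell list resembled the missing bins in the share without a gene. No gene lay in 56.2% of them. With all protein-coding genes counted they held 5.04 per Mb, against 3.30 in the missing bins. Gene density so counted was lower in the missing bins on 14 of 19 chromosomes. The share of bins without a gene was higher there on 9 of 19 and lower on 10. Much of the gap in density lay in olfactory and vomeronasal receptor genes. Without them, a choice made after seeing the data, the densities were 3.00 and 2.58 per Mb in the same order. Bins absent from another single list were richer in genes than those absent from the siControl 4-cell list. Bins missing only from the siRif1 4-cell list held 7.70 genes per Mb, those missing only from the siRif1 8-cell list 5.70 and those missing only from the siControl 8-cell list 7.0.

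**Figure D4:**
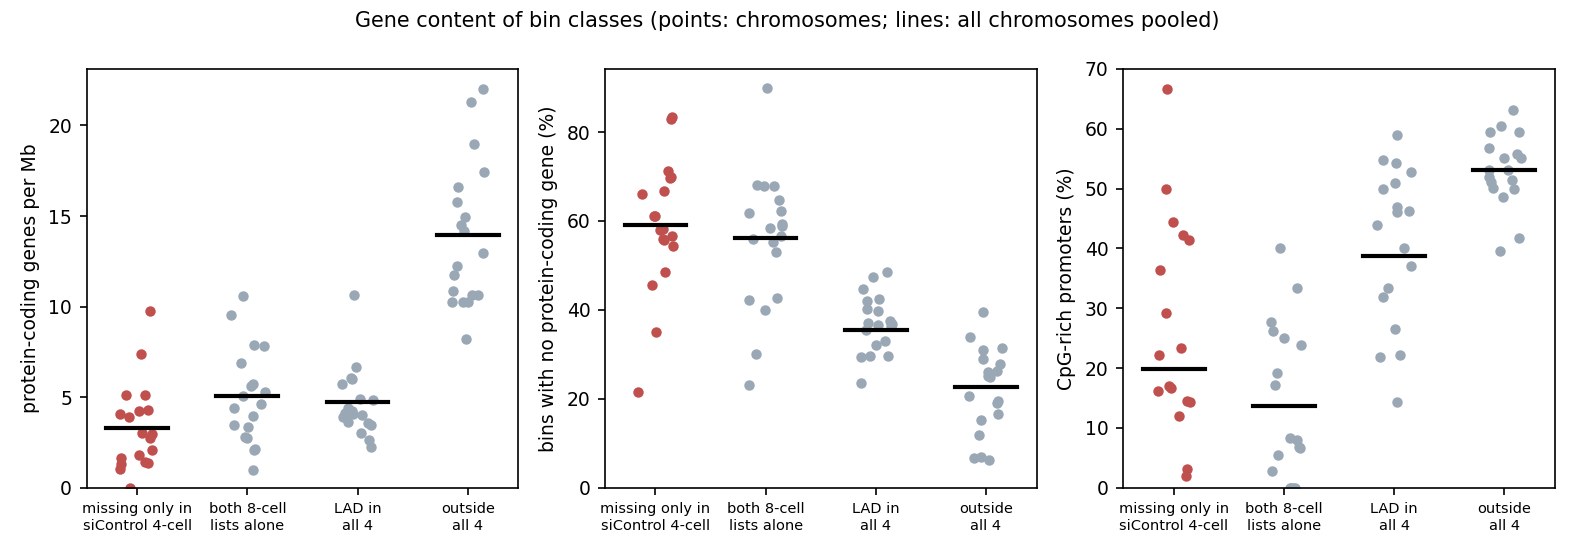
Protein-coding genes per Mb, percentage of bins without a protein-coding gene and percentage of CpG-rich promoters (y axes) for the bins missing only in siControl 4-cell embryos, for bins LAD in both 8-cell lists alone, for bins LAD in all 4 lists and for bins outside all 4 (x axes), with a point per chromosome and a line for all chromosomes pooled. The missing bins have 3.30 genes per Mb, 59.2% of bins without a gene and 19.9% CpG-rich promoters.

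Other gene types did not all follow the protein-coding genes. Long noncoding RNA genes numbered 2.91 per Mb in the missing bins, 4.57 in the common LAD bins and 6.86 outside all lists. There were 34 microRNA genes, or 0.173 per Mb, against 0.225 in the common LAD bins and 0.859 outside all lists. Pseudogenes, at 3.17 per Mb, were about as dense as in the common LAD bins, at 3.01, and less dense than outside all lists, at 4.28.

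Promoters were scored as CpG-rich when their GC content was at least 50% and their observed over expected CpG ratio at least 0.6. A promoter was known for 503 of the 648 genes. It was CpG-rich in 100 of them, or 19.9%, against 38.7% in the common LAD bins, 53.1% outside all lists and 47.1% of the whole grid. The median promoter had 3 CpGs and 45.3% GC in the missing bins, 9 CpGs and 53.3% GC in the common LAD bins, and 17 CpGs and 58.3% GC outside all lists. Of the printed promoters, Ano3 and Cyp2j8 are nearer to the median of the missing bins, in both CpGs and GC, than Gria4 and Adgrv1. The CpG-rich share was lower in the missing bins than in the common LAD bins on 14 of 17 chromosomes with promoters of both, and higher on 3. Against bins LAD in both 8-cell lists alone, of which 13.6% of promoters were CpG-rich, it was higher on 15 of 17. Without olfactory and vomeronasal receptor genes these 2 classes were close, at 25.6% in the missing bins and 24.0% in the 8-cell bins. The annotated start was itself a start codon, so that the window may not reach the true promoter, for 114 of the 503 genes (22.7%), against 12.5% in the common LAD bins, and for 80 of the 112 receptor genes among the 503. Without such genes the CpG-rich share of the missing bins was 24.9%, and the difference from the common LAD bins was -18.6 points, beside -18.9 with them.

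DamID reads methylated GATC, so the number of these sites bears on what the assay can see. The motif GATC, which reads the same on both strands, was present in 52.1% of promoters of the missing bins, 46.3% of those in the common LAD bins, 46.1% of those outside all lists and 46.3% of all promoters. The mean was 0.759, 0.631 and 0.630 sites per promoter in the same 3 classes. The GATC content of whole bins was not computed here.

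None of the listed genes of the early embryo lay in the missing bins. No gene of the lists for pluripotency (21 genes), trophectoderm (18), primitive endoderm (12) or the 2-cell stage and zygotic genome activation (26) had its midpoint there. The lists for replication factors (29), the nuclear lamina and envelope (12), Hox genes (39), imprinted genes (26), clustered histones (68), clustered protocadherins (57), cytosolic ribosomal proteins (74), proteasome subunits (47), mitochondrial complex I (33), taste receptors type 2 (35) and beta defensins (42) also had none. These 15 lists held 539 genes, beside the 3.22% of all genes that the missing bins held. Few genes of these lists were LAD in the other 3 lists in the first place, with 0 of the pluripotency genes and 2 of the trophectoderm genes. Of the germ layer and neural regulators, 1 of 24 lay in the missing bins.

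Receptors for the main neurotransmitters were present with several genes. Of 28 glutamate and GABA receptor subunit genes, 6 (21.4%) lay in the missing bins and 5 lay in the common LAD bins, so 6 of the 11 that were LAD in the other 3 lists were missing in siControl 4-cell embryos (54.5%), beside 25% (648 of 2593) for all protein-coding genes. By midpoint, 12 of the 28 genes were LAD in siRif1 4-cell embryos and 5 in siControl 4-cell embryos. At the 8-cell stage 19 were LAD in siRif1 embryos and 18 in siControl embryos. Gria4 and Gabra5, a GABA-A receptor subunit, lay wholly in missing bins. By the choice of bins they therefore had their whole body in the LADs of the 3 other groups and 0% in siControl 4-cell LADs.

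Other subunit genes reached past their stretch into siControl 4-cell LADs. Grid1, a delta-type glutamate receptor, had 100% of its body in LADs in siRif1 4-cell, 49.8% in siControl 4-cell, 89.5% in siRif1 8-cell and 89.1% in siControl 8-cell embryos. Grm8, a metabotropic glutamate receptor, had 95.9% in siRif1 4-cell, 39.0% in siControl 4-cell and 46.5% in both siRif1 and siControl 8-cell embryos. For both genes the midpoint was in a missing bin, but siControl 4-cell embryos still held part of the gene in LADs.

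Long neuronal and adhesion genes had 3 of 39 members in the missing bins (7.69%) and 12 in the common LAD bins when placed by midpoint. The count hung on that rule, with 13 of 39 (33.3%) by any overlap and 0 wholly inside. Cntnap5a, a neurexin-like adhesion gene, had 87.2% of its body in LADs in siRif1 4-cell, 0% in siControl 4-cell, 90.3% in siRif1 8-cell and 76.2% in siControl 8-cell embryos. Tenm2, a teneurin of synaptic adhesion, had 100% in siRif1 4-cell, 0% in siControl 4-cell, 59.9% in siRif1 8-cell and 56.9% in siControl 8-cell embryos. Dlg2, a scaffold of the postsynaptic density, had 74.7% in siRif1 4-cell, 49.3% in siControl 4-cell, 55.8% in siRif1 8-cell and 100% in siControl 8-cell embryos. Of the type II cadherins and non-clustered protocadherins, 1 of 13 lay there, Cdh20, with 42.0% of its body in LADs in siControl 4-cell and 100% in the other 3 groups.

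Among the 5 longest genes of the missing bins were Dlg2 (1973 kb), Fhit (1612 kb) and Tenm2 (1230 kb). Fhit, a gene at a common fragile site, had 100% of its body in LADs in siRif1 4-cell, 44.2% in siControl 4-cell, 62.8% in siRif1 8-cell and 100% in siControl 8-cell embryos. Genes of at least 500 kb numbered 20, or 3.09% of the genes of the missing bins, against 3.5% in the common LAD bins and 0.277% outside all lists. Of these 20, 4 lay wholly in missing bins and 12 had part of their body in siControl 4-cell LADs. Of all 648 genes, 560 (86.4%) lay wholly in missing bins and 50 (7.72%) reached into siControl 4-cell LADs.

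**Figure D5:**
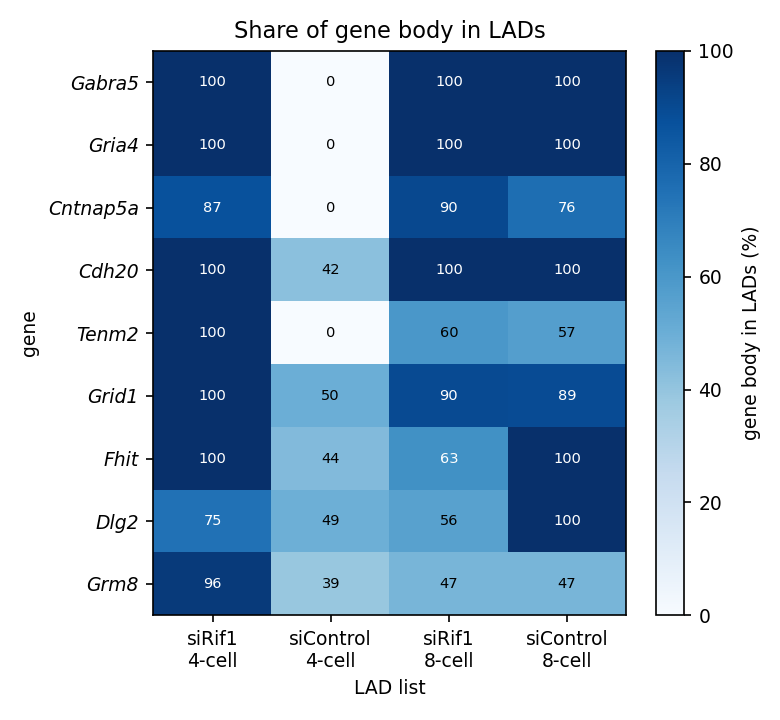
Percentage of the gene body in LADs (colour and printed value) in each LAD list (columns) for genes from the short lists and the longest genes (rows). Gria4 and Gabra5, which lie wholly in missing bins, are by the choice of bins at 100% in the 3 other lists and at 0% in siControl 4-cell embryos. Dlg2, Fhit, Grid1, Grm8 and Cdh20 keep between 39.0% and 49.8% in siControl 4-cell embryos.

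Clustered chemoreceptor genes were the largest family group in the missing bins. Olfactory receptors, which detect odorants in the nose, had 117 of 1097 genes there (10.7%), in 10 stretches, and these were 41.8% of the 280 that were LAD in the other 3 lists. Besides the 34 genes on chromosome 2, an extension at chr17:37300001-38000000 held 25 among its 26 genes, and an extension at chr9:18900001-19800000 held 17 among its 18 genes. Vomeronasal receptors, which detect pheromones, had 25 of 347 genes there (7.20%), in 8 stretches, and these were 48.1% of the 52 that were LAD in the other 3 lists. An extension at chr7:11900001-12400000 held 9 of them, from Vmn1r76 to Vmn1r84, and no other gene. A freestanding stretch at chr5:108900001-109500000 held 8, from Vmn2r10 to Vmn2r17. The same 2 shares for all protein-coding genes were 3.22% and 25%. Genes of a cluster share their stretch, so the receptor counts rest on 10 and 8 stretches and not on independent genes.

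By midpoint, the olfactory receptor genes in LADs numbered 394 in siRif1 4-cell and 270 in siControl 4-cell embryos, and 611 in siRif1 8-cell and 645 in siControl 8-cell embryos. The vomeronasal receptor genes in LADs numbered 69 in siRif1 4-cell and 52 in siControl 4-cell embryos, and 144 in siRif1 8-cell and 240 in siControl 8-cell embryos. Many receptor genes thus lay outside LADs at the 4-cell stage in both groups. The bins that were LAD in both 8-cell lists alone held 160 olfactory and 74 vomeronasal receptor genes, more than the missing bins. Receptor genes made up 21.9% of the protein-coding genes of the missing bins, 40.5% of those LAD in both 8-cell lists alone and 9.77% of those in the common LAD bins.

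Leaving out both receptor families, a choice made after seeing the data, lowered gene density to 2.58 per Mb in the missing bins and 4.29 per Mb in the common LAD bins. The CpG-rich share of promoters was then 25.6% in the missing bins and 43.5% in the common LAD bins, so the difference in both measures kept its direction. The median gene length was 26.6 kb in the missing bins and 35.1 kb in the common LAD bins without the receptors, and 17.6 kb and 27.7 kb with them.

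Other gene clusters appeared as few stretches each. Cytochrome P450 genes had 11 of 93 members there (11.8%), which were the 7 Cyp2j genes on chromosome 4, Cyp2b9, Cyp2a4 and Cyp2b23 at chr7:26100001-26700000, and Cyp7b1, an oxysterol hydroxylase, at chr3:17700001-18200000. Serpins, a family of protease inhibitors, had 7 of 62 (11.3%), all in an extension at chr1:107100001-107700000 that ran from Serpinb3b to Serpinb8 and held no other gene. Keratins and keratin-associated proteins, which build hair, had 10 of 109 (9.17%), all in an extension at chr16:88900001-89500000. Of the genes LAD in the other 3 lists, the missing ones were 57.9% of P450 genes, 50.0% of serpins and 45.5% of keratin genes, each from 1 to 3 stretches. For all protein-coding genes the missing bins held 3.22%, and 25% of those LAD in the other 3 lists.

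The remaining families held near or below the share of all genes. Zinc finger proteins had 6 of 402 genes in the missing bins (1.49%), with Zfp972, Zfp971 and Zfp931 together at chr2:177700001-178100000. C-type lectin and killer receptors had 2 of 56 (3.57%), Clec2g and Clec14a, although 25 were LAD in the other 3 lists. Pramel genes, several of which act in oocytes and early embryos, had 1 of 45 (2.22%), Pramel47, although 16 were LAD in the other 3 lists.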

How the data were processed

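The 12 DamID samples form 4 groups of 3 replicates, and the authors deposited a single LAD list per group, made from all 3 replicates. A deposited list holds LAD boundaries in steps of 100 kb, with a score field that is 0 for all LADs and was left aside. Per the submitters' processing notes, the tools were Trimmomatic, Bowtie2, SAMtools and Picard and the build was mm10 (GRCm38), with no versions. How LADs were called, at which threshold and with what treatment of unfused Dam is not given in the sources used here. A threshold that moves with depth or with the spread between replicates would change which bins are called, and depth is unknown from the lists.

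Coordinates are 1-based on GRCm38. Bins of 100 kb were compared between lists on chromosomes 1 to 19, and chromosome X was not analysed here. Gene positions came from RefSeq (GRCm38.p6), where 333 of 47038 entries had scaffold coordinates and were dropped. Gene strand is not in that annotation table, so genes were placed by midpoint. Promoters were matched by gene identifier and chromosome for 16122 of 20140 protein-coding genes (80.0%), and for none of those on chromosome 18. Lists of one record per group allow no test between groups, hence no p-values. SDs are over chromosomes, which are not replicates. Whether replicates came from separate collections is not stated in the labels.

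The bins and the 27 gene lists were chosen with earlier results of these data known, and some lists began as those of an earlier look at the same data. Genes were named by rule: up to 3 in each of the 10 longest stretches, those of lists of at most 40 genes, the 5 longest, and for larger families the 3 stretches with most members. Names starting with Gm or ending in Rik were left out of the first of these, and a few genes chosen this way are not reported here. On simulated lists with known answers, the state of each bin, the placing of positions and the total of bins in stretches were recovered. The number, lengths and kinds of the stretches were not checked in this way. Python 3.11.15, pandas 2.3.3, numpy 2.4.6, scipy 1.17.1 and matplotlib 3.10.9 were used. Alternatives tried were the minimum LAD length, bridged gaps, bins at LAD borders, the minimum stretch length, the rule placing genes, the receptor genes, the promoter start and each chromosome left out in turn.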

Additional observations from a re-analysis of the deposited data

How the results depend on the processing

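No paired analysis was possible because each group has a single list made from all 3 replicates, and for the same reason leaving out replicates was not run. Of 289 values recomputed under 12 settings, 256 stayed within their limits, 33 moved and none reversed, and the cause was not tested. The limits were 1.5 times for counts, the 95% Wilson interval for shares and gene density, and a 95% interval for differences. Only the differences between missing and common LAD bins could be scored as reversed. The intervals take bins and genes as independent, although bins join into stretches and genes into clusters, and they are wide for short lists. With LADs of at least 300 kb, closures held 13.4% of the bins and Pramel genes 0%. Without bins next to a siControl 4-cell LAD, the missing bins were 6.83% of the grid and 26.9% of bins LAD in the other 3 lists, 61.6% of them had no gene, and germ layer regulators and type II cadherins fell to 0. With stretches of at least 300 kb these shares were 7.25% and 28.5%, extensions held 47.2% and closures 17.9%, and type II cadherins and Pramel genes were at 0. Bridging gaps of up to 200 kb moved none of the 40 values computed with it. It had almost nothing to change, since the missing bins stayed at 1961 and bins LAD in the other 3 lists went from 6053 to 6054. These 40 values are part of the 256 and say little about stability. The same holds for the 15 gene lists with no gene in the missing bins, under settings that only remove bins or genes. Those settings were border bins left out, stretches of at least 300 kb and genes wholly inside, where 0 could only stay 0. Gene density was 4.01 per Mb with genes placed by any overlap, 2.86 with genes wholly inside, 2.68 with genes of known strand placed by their start, and 2.58 without receptor genes, which was chosen after seeing the data. Long neuronal genes were at 33.3% by any overlap and 0 wholly inside, where type II cadherins were also at 0, glutamate and GABA receptor genes at 7.14% and CpG-rich promoters at 14.3%. Placed by their start, germ layer regulators and Pramel genes were at 0. Judged by gene midpoints, 78.8% of the bins had no gene. CpG-rich promoters were 25.6% without receptors and, in choices made after seeing the data, 24.9% without starts at a start codon and 16.2% for starts within 50 bases of the outer end of the gene. Closures held 13.9% without chromosome 2 and freestanding stretches 32.0% without chromosome 13. The difference between missing and common LAD bins kept its direction in every alternative that gave it, at -1.45 genes per Mb (-1.71 to -1.10), 23.7 points of bins without a gene (11.7 to 26.2) and -18.9 points of CpG-rich promoters (-23.1 to -16.4). With a single list per group, none of these values carries a replicate error, and the unknown depth sets no limit that could be given.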
